A study of Homo sapiens with 4 samples.

Results

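The genes of mitosis and of the kinetochore, the protein plate through which a chromosome holds on to spindle microtubules, were followed through the RNA of 2 ovarian cancer cell lines, HeyC2 and SKOV3. The set was given as a list of 44 gene symbols. All 44 were found among the 26506 symbols of the deposited tables. They were sorted here by function into 9 role groups, from the CDK1-cyclin kinase to chromosome structure. Cells of each line received the pCMV6/TET1 plasmid, which carries full-length TET1, an enzyme that oxidises methylated cytosine in DNA, or the empty plasmid as control, and both were then grown under Geneticin selection, so that comparing the libraries of a line shows how RNA levels differ with added TET1. There is 1 library per condition, 4 in all, so no difference has a replicate check and no p-value is given. Whether the selected cells were a pool or 1 clone is not given in the sources used here.

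Entry into mitosis is driven by the kinase CDK1 bound to cyclin A or cyclin B, and exit by the anaphase-promoting complex, which marks cyclin B and securin for destruction. Most genes of this machinery are transcribed late in the cell cycle, in G2 and M phase, and are repressed in resting cells by the DREAM complex. Their promoters are known to carry the cell cycle genes homology region (CHR), which DREAM and its activating counterpart MuvB-MYB bind, and CCAAT boxes bound by NF-Y, while FOXM1 joins MuvB in G2. In a culture of dividing cells, the RNA of these genes is therefore a usual readout of how many cells are in G2 and mitosis. In bulk RNA, fewer cells in these phases and less RNA per cell cannot be told apart.

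The CHR and CCAAT elements were searched on both strands of the RefSeq promoter windows (GRCh38.p14), each from 250 bases before to 50 bases after a transcription start, as TTTGAA or TTTAAA for the CHR and as CCAAT for the CCAAT box. The windows of 4 genes are shown to let these elements be seen: cyclin B1 and cyclin B2, the anaphase activator CDC20 and the kinase PLK1. Each line holds the 150 bases before the start, 5′ to 3′ on the plus strand, with matches to either element in capitals. On GRCh37, the build of the tables, they lie at chr5:68462827-68462976 for CCNB1, chr15:59397195-59397344 for CCNB2, chr1:43824502-43824651 for CDC20 and chr16:23690060-23690209 for PLK1.
CCNB1: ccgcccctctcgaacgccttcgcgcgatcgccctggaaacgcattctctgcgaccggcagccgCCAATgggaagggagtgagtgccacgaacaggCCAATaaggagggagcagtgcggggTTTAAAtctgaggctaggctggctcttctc
CCNB2: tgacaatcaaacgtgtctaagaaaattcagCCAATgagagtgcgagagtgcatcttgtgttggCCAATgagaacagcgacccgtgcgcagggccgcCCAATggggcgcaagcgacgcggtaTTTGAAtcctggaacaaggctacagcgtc
CDC20: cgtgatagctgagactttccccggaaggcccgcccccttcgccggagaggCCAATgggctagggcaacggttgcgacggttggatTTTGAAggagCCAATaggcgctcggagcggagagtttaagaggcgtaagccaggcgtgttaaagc
PLK1: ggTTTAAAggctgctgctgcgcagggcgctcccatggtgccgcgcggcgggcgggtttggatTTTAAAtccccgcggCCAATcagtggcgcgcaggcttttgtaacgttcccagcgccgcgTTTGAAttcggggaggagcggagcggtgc

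The CCNB1, CCNB2 and PLK1 windows each hold a CHR whose first base lies 30, 29 and 29 bases before the start, and in CDC20 it lies 65 bases before it. CCNB2 has 3 CCAAT matches in these 150 bases, CCNB1 and CDC20 have 2 and PLK1 has 1. No CHR match overlaps a CCAAT match in these windows. GENCODE has transcripts of CCNB1, CCNB2 and PLK1 that start before the RefSeq start, from 23688977 on for PLK1 and from 59397325 for CCNB2, and 15 bases of the CCNB1 window and 20 of the PLK1 window are also annotated as UTR.

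Both elements were common in the set. A CHR was found in 34 of the 38 members with a window (89.5%), beside 27.9% of all 27305 genes with a window and 20.8% of the genes that passed the filter on low values, described below, in both cell lines. A CCAAT box was found in 30 of 38 (78.9%), beside 39.7% and 43.8%, and both elements together in 26 (68.4%), beside 12.7% and 11.2%. In 25 members the CHR began within the 100 bases before the start, where 10.5% of all genes with a window have 1. The 4 members with a window and no CHR match were CCNA2, AURKB, NEK2 and BUB1. Only TTTGAA and TTTAAA were searched, so a CHR with other letters would have been missed in them. For AURKA, TTK, TPX2, BIRC5, FOXM1 and UBE2C no window was available. A match is a run of letters and not a measured binding site.

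**Figure D1:**
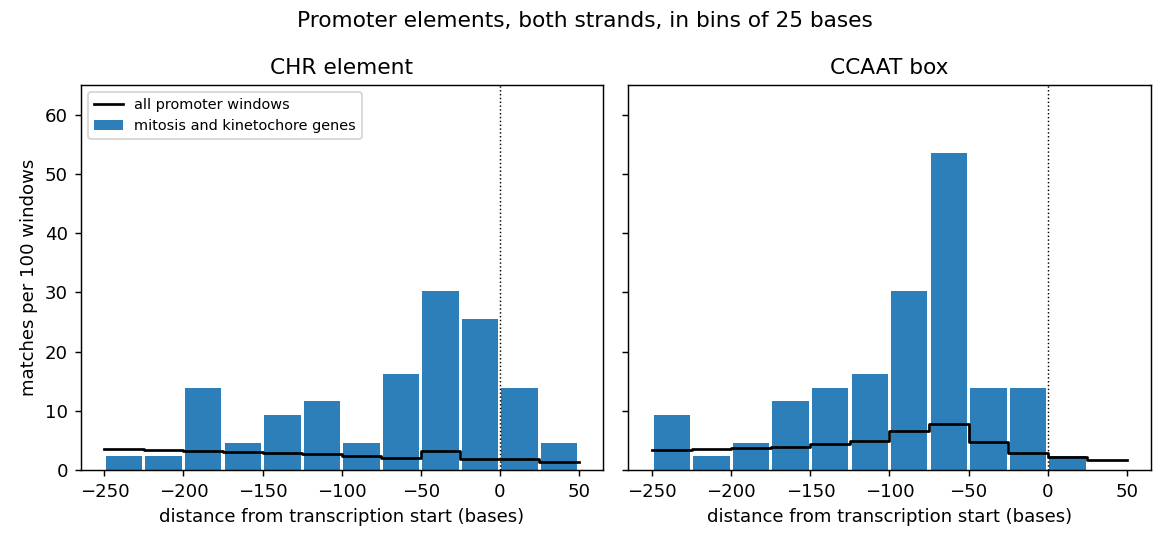
Matches to the CHR element (left) and the CCAAT box (right) per 100 promoter windows, in bins of 25 bases, against the distance from the transcription start in bases. Bars are the 43 windows of the 38 members that had one, and the line is all 35116 windows; member matches to the CHR were most frequent from 50 to 26 bases before the start (30.2 per 100 windows, 3.16 over all windows) and those to the CCAAT box from 75 to 51 bases before it (53.5 per 100 windows, 7.79 over all windows).

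TET1 itself measured 0.20 FPKM in the HeyC2 control and 0.52 in HeyC2 TET1, and in SKOV3 it was at 0.43 in the control and at 1.80 with TET1. FPKM is a fragment number divided by transcript length and by library depth, and the 4 libraries held between an estimated 6580000 and 7280000 fragments. By the spacing of its values, each TET1 library had been multiplied by 1 constant, 3.23 in HeyC2 and 1.35 in SKOV3. GAPDH then equals its control. This scaling is inferred from the values and is not given in the sources used here. Levels are given here as FPKM before that scaling, where GAPDH was 5417 and 1675 in HeyC2 and 2248 and 1671 in SKOV3, control first. Keratins 8 and 18 and the Müllerian factor PAX8 were present in all 4 libraries, while WT1 and MUC16 were at or below 0.53 FPKM and, in HeyC2, CDH1 was at 0 and EPCAM at or below 0.38. The T cell gene CD3E was at 0 and the leukocyte gene PTPRC at or below 0.28. Other markers set the libraries of a line apart. With the control first, KRT7 was at 290 and 1125 in HeyC2 and at 1537 and 22.0 in SKOV3, and KRT19 was at 255 and 0.46 in SKOV3. In HeyC2 vimentin was at 7496 and 2927 and fibronectin at 5557 and 2619. Of the endothelial genes, CDH5 was at 18.9 and 94.6 in HeyC2 while PECAM1 was at 0.09 and 0.03. The part of these differences in the results below was not tested.

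To compare genes, the log2 change was taken as log2 of TET1 FPKM plus 1 over control FPKM plus 1, from the deposited values, minus the median change of every gene whose 2 libraries of that line averaged 1 FPKM or more. That median was 1.61 in HeyC2 and 0.59 in SKOV3, so a relative change of 0 means a gene that moved as the median gene did. A gene was counted as lower or higher when it was at least 1.5-fold away from that median. Of 12993 genes tested in HeyC2, 12.9% were lower and 13.0% higher by this count, and of 13339 in SKOV3, 17.9% and 20.6%. All 44 members passed the filter in both lines.

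Mitosis and kinetochore genes were lower with TET1 in both lines. In HeyC2 41 of 44 were lower and 0 higher, with a median relative log2 change of -1.46, that is 2.75-fold lower than the median gene. In SKOV3 42 of 44 were lower and 0 higher, with a median of -1.10, or 2.15-fold. Both lines together gave 39 of 44 lower in both, beside 325 of 11888 genes (2.73%) over all genes. No member missed the 1.5-fold mark in both lines at once. The midzone motor KIF20A was the lowest in HeyC2 (-2.71) and cyclin A2 the lowest in SKOV3 (-2.25), while ECT2 (0.40) and CENPA (-0.28) were the highest. The interquartile range of all genes ran from -0.32 to 0.32 in HeyC2 and from -0.44 to 0.47 in SKOV3.

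Before the GAPDH scaling the direction was seen without centring too: 43 of 44 members had a lower FPKM in HeyC2 TET1 than in its control and 44 of 44 in SKOV3. As deposited, with the HeyC2 TET1 values 3.23 times larger, the TET1 value was below the control in 17 members in HeyC2 and in 42 in SKOV3. The same counts were not taken over all genes, so no all-gene share stands beside them. A share of the summed FPKM is free of both steps: the members held 0.183% of the HeyC2 control and 0.0728% of HeyC2 TET1, 2.51 times less, and 0.669% and 0.327% in SKOV3, 2.05 times less.

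**Figure D2:**
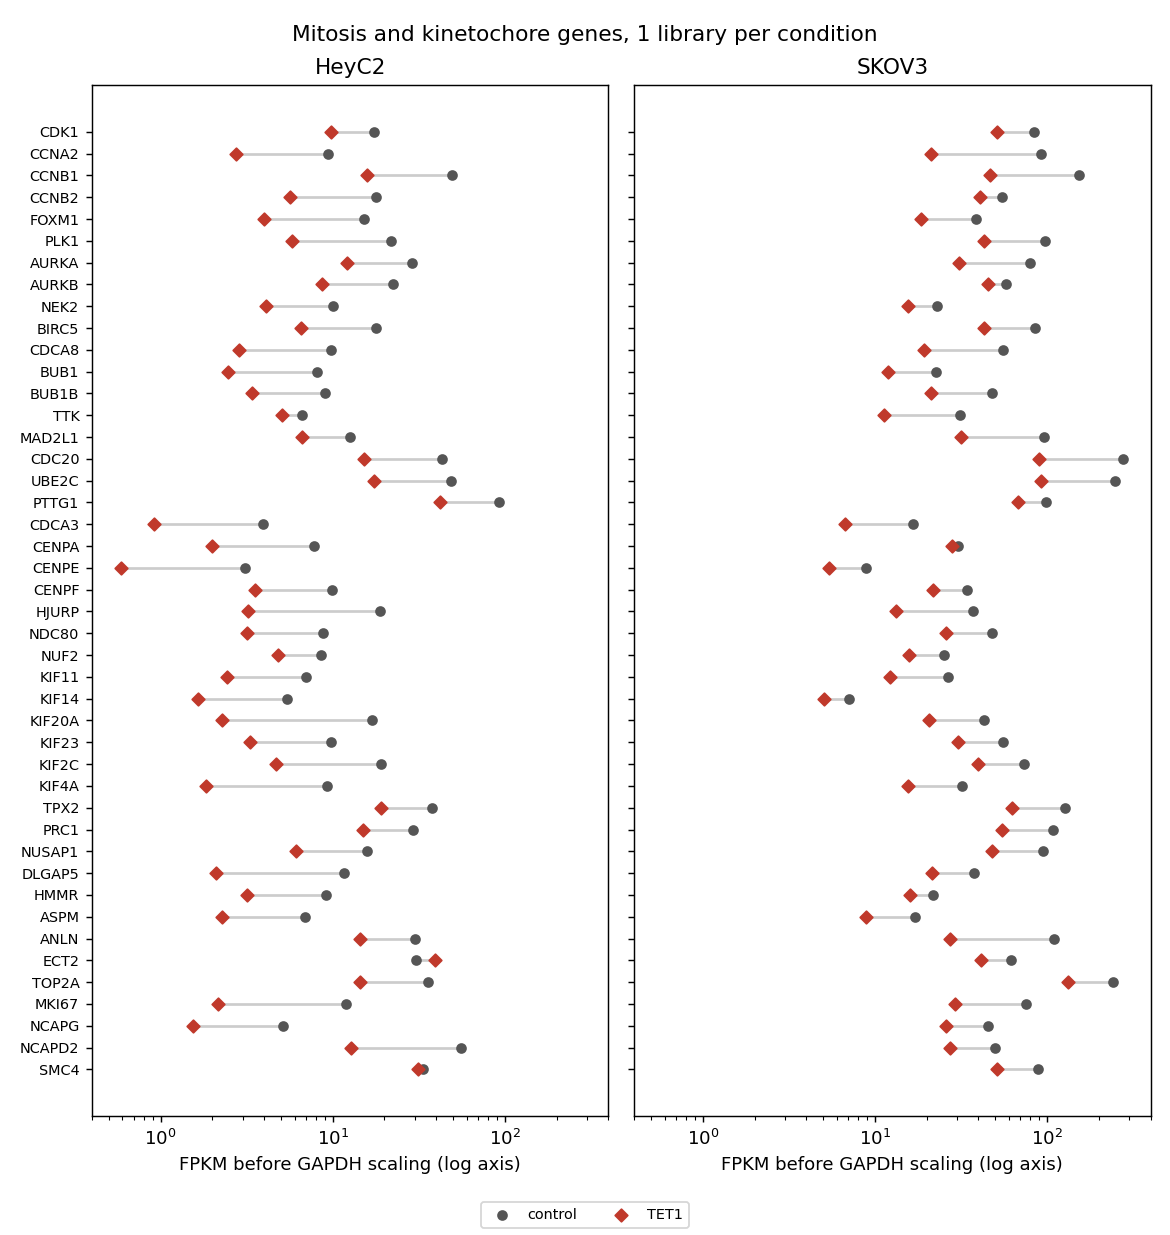
Level of each of the 44 members in FPKM before GAPDH scaling, on a log axis, in HeyC2 (left) and SKOV3 (right). Circles are the control library and diamonds the TET1 library, 1 library each. The TET1 diamond lies left of the control in 43 members in HeyC2, ECT2 being the exception, and in 44 in SKOV3. The same count over all genes was not taken.

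The level from which these genes started differed between the lines. The median member stood at 13.97 FPKM in the HeyC2 control (range 3.11 to 92.15) and at 55.2 in the SKOV3 control (range 7.12 to 277). In the control libraries 43 of 44 members were higher in SKOV3, by a median ratio of 3.55, where the median over all genes was 1.21. NCAPD2 was the exception. With TET1 the median member was at 4.39 FPKM in HeyC2 and 27.4 in SKOV3. In SKOV3 TET1, 38 of 44 members remained above the HeyC2 control. The share of all genes higher in SKOV3 was not taken for either of these counts. The lines were deposited as separate tables.

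The HeyC2 libraries hold fewer fragments of these genes and are the less exact. By annotated transcript length and estimated depth, the median member rested on about 285 fragments in the HeyC2 control and 79.5 in HeyC2 TET1, and on 1095 and 423.5 in SKOV3. In 27 members at least 1 library held fewer than 100. The exact binomial 95% interval of the log2 change, taken without a pseudocount and relative to the all-gene median ratio, had a median half-width of 0.375 in HeyC2 and 0.166 in SKOV3. It lay below 0 in 43 members in HeyC2 and 44 in SKOV3, and above 0 for ECT2 in HeyC2. These intervals cover counting error alone and say nothing of the spread between cultures. They were not taken over all genes, so no all-gene share stands beside the counts.

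**Figure D3:**
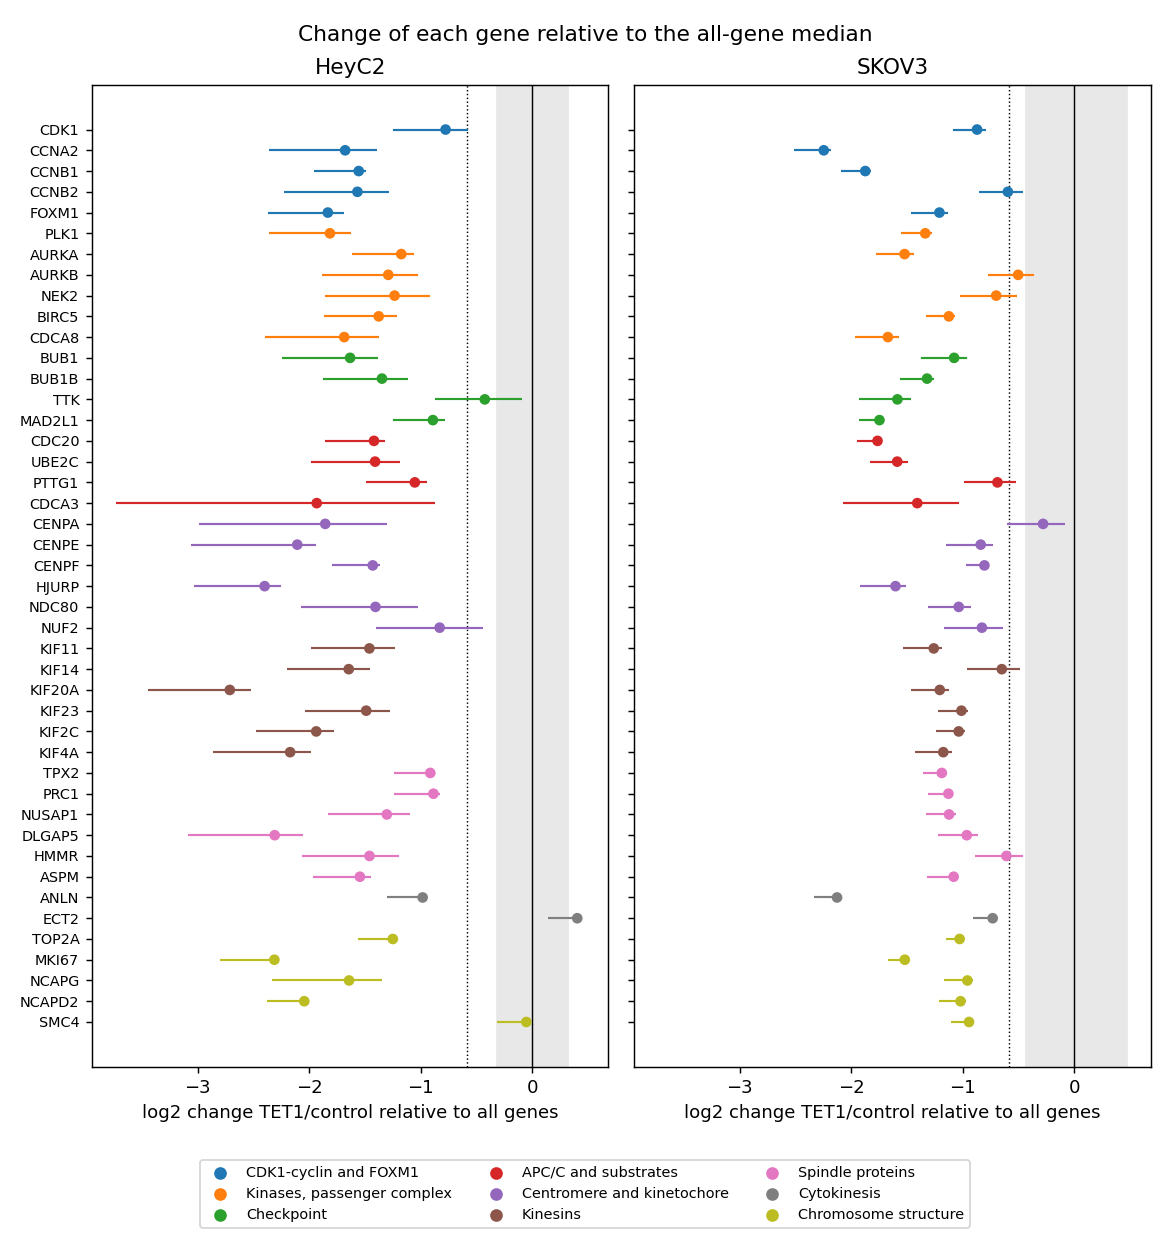
Relative log2 change of each member, TET1 over control, in HeyC2 (left) and SKOV3 (right), coloured by role. Horizontal lines are exact binomial 95% intervals from estimated fragments without a pseudocount, so they are not intervals of the points, which carry the pseudocount of 1. A point can thus sit outside its line, as for TOP2A and MKI67 in both lines and ECT2 and SMC4 in HeyC2. The grey band is the interquartile range of all genes and the solid line the all-gene median. The dotted line is 1.5-fold lower, which 41 points in HeyC2 and 42 in SKOV3 pass.

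The CDK1-cyclin group was lower in both lines for each of its 5 genes, with medians of -1.57 in HeyC2 and -1.21 in SKOV3. CDK1, the kinase itself, measured 17.3 and 9.76 FPKM in HeyC2 and 84.0 and 51.1 in SKOV3, control first here and in what follows. It had the mildest change of the group in HeyC2 at -0.78, and -0.87 in SKOV3. CCNA2, the cyclin of S phase and early mitosis, measured 9.37 and 2.75 FPKM in HeyC2 and 92.7 and 21.3 in SKOV3. These are relative changes of -1.68 and -2.25, the second being a 4.75-fold difference.

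The B-type cyclins complete the mitotic kinase. CCNB1 measured 49.2 and 15.8 FPKM in HeyC2 and 153.9 and 46.5 in SKOV3 (-1.56 and -1.87). CCNB2 measured 17.8 and 5.67 FPKM in HeyC2 and 55.1 and 40.7 in SKOV3 (-1.57 and -0.60). The 2 cyclins thus had nearly the same change in HeyC2, while in SKOV3 their counting intervals, -2.09 to -1.82 and -0.86 to -0.46, did not overlap. FOXM1, the forkhead factor of G2 and M phase genes, measured 15.3 and 4.0 FPKM in HeyC2 and 38.8 and 18.5 in SKOV3 (-1.83 and -1.21).

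Mitotic kinases and the chromosomal passenger complex, which corrects faulty microtubule attachments, had medians of -1.33 in HeyC2 and -1.23 in SKOV3. In HeyC2 6 of 6 were lower and in SKOV3 5 of 6. CDCA8, or borealin, the passenger subunit with the lowest mean change here, measured 9.81 and 2.86 FPKM in HeyC2 and 55.9 and 19.2 in SKOV3 (-1.69 and -1.67). AURKB, the kinase of the same complex, measured 22.4 and 8.72 FPKM in HeyC2 and 57.9 and 45.7 in SKOV3 (-1.29 and -0.50), short of 1.5-fold in SKOV3. Of the same complex, AURKB and CDCA8 thus had counting intervals in SKOV3 that did not overlap, -0.78 to -0.36 and -1.97 to -1.57. The other members were PLK1, which acts at centrosomes, kinetochores and the midzone (-1.81 and -1.34), the centrosome kinase AURKA (-1.17 and -1.52), the passenger subunit survivin, BIRC5 (-1.38 and -1.12), and the centrosome kinase NEK2 (-1.23 and -0.70).

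Spindle assembly checkpoint genes, whose products hold back anaphase until every kinetochore is attached, had medians of -1.12 in HeyC2 and -1.45 in SKOV3. BUB1 measured 8.11 and 2.46 FPKM in HeyC2 and 22.8 and 11.9 in SKOV3 (-1.63 and -1.08). TTK, the kinase MPS1 that starts checkpoint signalling, measured 6.67 and 5.08 FPKM in HeyC2 and 31.4 and 11.3 in SKOV3 (-0.42 and -1.59). The 2 kinases stood in opposite order in the lines, with TTK short of 1.5-fold in HeyC2. MAD2L1, which binds and restrains CDC20, was at -0.89 and -1.75, and BUB1B, its partner BUBR1, at -1.35 and -1.32.

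Of the 4 genes around the anaphase-promoting complex, CDC20, UBE2C and PTTG1 were among the most abundant of the set and CDCA3 among the least. CDC20, the activator, measured 43.2 and 15.3 FPKM in HeyC2 and 277 and 90.6 in SKOV3 (-1.42 and -1.77). UBE2C, its ubiquitin-conjugating enzyme, measured 48.7 and 17.3 FPKM in HeyC2 and 248 and 91.9 in SKOV3 (-1.41 and -1.59). PTTG1, or securin, which guards cohesin until anaphase, measured 92.15 and 42.05 FPKM in HeyC2 and 98.3 and 68.0 in SKOV3 (-1.05 and -0.69). CDC20 and UBE2C thus differed less from each other than from securin in both lines, and CDC20 was the highest member of the SKOV3 control as securin was of the HeyC2 control. The securin copies PTTG2 and PTTG3P, with which reads could be shared, were listed at 0 in all 4 libraries. CDCA3, a trigger of mitotic entry, measured 3.93 and 0.91 FPKM in HeyC2 and 16.8 and 6.73 in SKOV3 (-1.93 and -1.41). Its HeyC2 TET1 value rested on about 6 fragments, and its interval ran from -3.74 to -0.88.

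Centromere and kinetochore genes had the widest gap between the lines of the role groups in which HeyC2 was the lower, with medians of -1.64 in HeyC2 and -0.83 in SKOV3, and CENPA, CENPE, CENPF, HJURP and NDC80 were further below 0 in HeyC2, while NUF2 was equal in the lines at -0.83. CENPA, the histone H3 variant that marks centromeres, measured 7.83 and 1.99 FPKM in HeyC2 and 30.4 and 28.1 in SKOV3 (-1.86 and -0.28). Its HeyC2 TET1 value rested on about 16 fragments. HJURP, the chaperone that deposits CENPA, measured 18.7 and 3.22 FPKM in HeyC2 and 37.2 and 13.3 in SKOV3 (-2.40 and -1.60). So the chaperone was lower in both lines while its histone passed the 1.5-fold mark in HeyC2 alone. CENPE, the kinetochore motor, was at -2.11 and -0.84, CENPF, a large protein of the outer kinetochore, at -1.43 and -0.81, and the microtubule-binding pair NDC80 and NUF2 at -1.41 and -0.83 in HeyC2 and -1.04 and -0.83 in SKOV3.

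Mitotic kinesins, the motors of the spindle, had the lowest median of the role groups in HeyC2, -1.79, and a median of -1.11 in SKOV3, with 6 of 6 lower in each line. KIF20A, the motor MKLP2 that carries the passenger complex to the midzone, measured 16.98 and 2.28 FPKM in HeyC2 and 43.2 and 20.6 in SKOV3 (-2.71 and -1.21). The HeyC2 value is a 6.55-fold difference, the largest of the set in either line, with an interval from -3.45 to -2.52. KIF4A, a chromosome-bound motor, was at -2.17 and -1.18, KIF2C, which takes microtubules apart at centromeres, at -1.94 and -1.04, and KIF14, a midbody motor, at -1.65 and -0.65. KIF23, a subunit of centralspindlin, was at -1.49 and -1.01, and KIF11, or Eg5, which pushes spindle poles apart, at -1.46 and -1.26. The retrogene KIF4B, a near copy of KIF4A, was at or below 0.03 FPKM.

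Other spindle proteins had medians of -1.38 in HeyC2 and -1.10 in SKOV3, and each of the 6 was lower in both lines. DLGAP5, which stabilises kinetochore fibres, measured 11.6 and 2.09 FPKM in HeyC2 and 37.8 and 21.5 in SKOV3 (-2.31 and -0.96). Milder in HeyC2 were TPX2, the activator of AURKA (-0.91 and -1.19), and PRC1, which bundles midzone microtubules (-0.89 and -1.13). ASPM of the spindle pole was at -1.54 and -1.08, HMMR at -1.46 and -0.61 and NUSAP1 at -1.30 and -1.12. The order of these 6 genes differed between the lines.

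Cytokinesis was represented by 2 genes that did not move alike. ANLN, or anillin, the scaffold of the contractile ring, measured 29.98 and 14.5 FPKM in HeyC2 and 109 and 27.5 in SKOV3 (-0.98 and -2.13). ECT2, the exchange factor that activates RhoA at the division plane, measured 30.6 and 39.2 FPKM in HeyC2 and 61.5 and 41.3 in SKOV3 (0.40 and -0.73). ECT2 was the single member above the all-gene median, and this in HeyC2, where its interval ran from 0.14 to 0.40.

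Chromosome structure genes had medians of -1.64 in HeyC2 and -1.02 in SKOV3. MKI67, the surface coat of mitotic chromosomes and the Ki-67 proliferation marker, measured 12.01 and 2.16 FPKM in HeyC2 and 75.6 and 29.1 in SKOV3 (-2.31 and -1.52). TOP2A, the topoisomerase that untangles sister chromatids, measured 35.9 and 14.3 FPKM in HeyC2 and 242 and 132 in SKOV3 (-1.25 and -1.03). MKI67 was thus the lower of these in both lines.

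Condensin, the ring complex that compacts mitotic chromosomes, gave mixed values in HeyC2. NCAPD2, a condensin I subunit, measured 55.9 and 12.7 FPKM in HeyC2 and 49.8 and 27.3 in SKOV3 (-2.04 and -1.02). SMC4, the ATPase shared by both condensins, measured 33.6 and 31.2 FPKM in HeyC2 and 88.8 and 51.4 in SKOV3 (-0.05 and -0.94). NCAPG, another condensin I subunit, was at -1.64 and -0.96. The 3 subunits lay within 0.94 to 1.02 below the median gene in SKOV3 and spread from near 0 to a 4.13-fold difference in HeyC2.

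How far a member was lowered in HeyC2 told little of how far it was lowered in SKOV3. Across the 44 members, which share the 4 libraries, Pearson's r was 0.08 and Spearman's rho 0.11, and rho over all genes that passed in both lines was 0.08. These are descriptions across genes, which are not independent replicates. In 13 of 44 members the relative change was further below 0 in SKOV3 than in HeyC2, and the other members, KIF20A, DLGAP5 and CENPA included, were further below 0 in HeyC2. The difference between the lines was not tested.

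The changes of nearby genes on the chromosome were also taken for each member. Whether they go with the changes of the members was not tested. FOXM1 (chr12:2966846-2986340), CDCA3 (chr12:6953957-6960456) and NCAPD2 (chr12:6602522-6641121) are on the short arm of chromosome 12 in GRCh37, where the 157 other tested genes had a median relative change of -0.70 in HeyC2, and 139 had one of -0.005 in SKOV3. The 50 nearest tested genes had medians in HeyC2 of -0.79 for FOXM1, -0.68 for NCAPD2 and -0.65 for CDCA3, the lowest of the members. At the other end stood ECT2 (chr3:172468472-172539264) with 0.45 and SMC4 (chr3:160117062-160152742) with 0.42, the 2 members that did not pass 1.5-fold in HeyC2 besides TTK, whose neighbours were at 0.01. In SKOV3 the highest neighbour medians were 0.63 for AURKB (chr17:8108051-8113918), 0.43 for BUB1 and 0.35 for CENPA (chr2:26987157-27023935). These members were themselves at -0.50, -1.08 and -0.28 in SKOV3, in that order. The lowest neighbour medians in SKOV3 were those of BUB1B and CCNB1, both -0.58, and NUSAP1, -0.56.

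Set against their own 50 neighbours, 44 of 44 members lay below them in each line, 41 in HeyC2 and 42 in SKOV3 by at least 1.5-fold. The medians of the 44 members were -1.43 and -1.14. This comparison was chosen after the data were seen, and the same counts over all genes were not taken. ECT2 was then at -0.05 and SMC4 at -0.47 in HeyC2. CENPA and AURKB then passed the 1.5-fold mark in SKOV3, while HMMR (-0.55) and NUSAP1 (-0.56) did not. Leaving out the 3 genes of the short arm of chromosome 12 left 38 of 41 members lower in HeyC2 and 39 of 41 in SKOV3, with medians of -1.43 and -1.08.

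**Figure D4:**
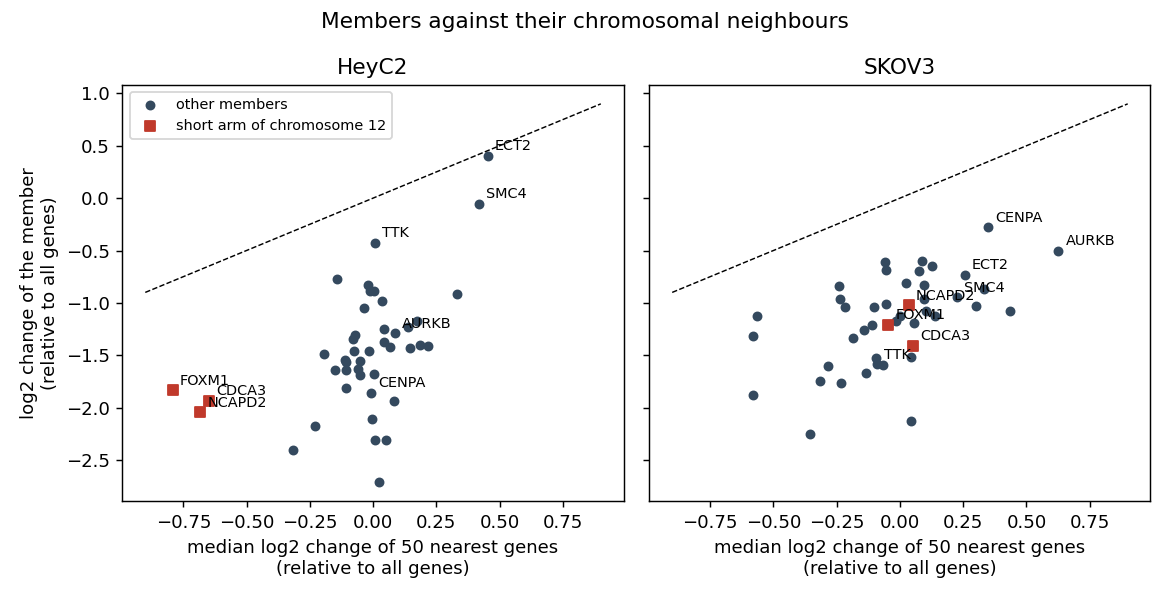
Relative log2 change of each member (vertical axis) against the median relative log2 change of its 50 nearest tested genes (horizontal axis) in HeyC2 (left) and SKOV3 (right). Squares are the 3 members on the short arm of chromosome 12, whose neighbours lie between -0.79 and -0.65 in HeyC2. On the dashed line a member would equal its neighbours, and 44 of 44 members lie below it in both lines. The same count over all genes was not taken.

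The other genes of mitosis, 81 in all and listed by function, were counted in the same way. The members, this list and the lists that follow were chosen with earlier results of these data known. Differences between lists can therefore reflect which genes were put in each. In SKOV3 68 of 81 were lower and 0 higher, with a median of -1.04, close to the -1.10 of the 44 members. In HeyC2 35 were lower and 3 higher, with a median of -0.44, against -1.46 of the members. Lower in both lines were 32. The lowest by their mean were SPC25, a subunit of the NDC80 complex (-2.02 and -1.17), the CDK1-inhibiting kinase PKMYT1 (-1.37 and -1.80) and the spindle motor KIFC1 (-1.46 and -1.70). The highest were NSL1 (0.65 and 0.08) and MIS12 (0.02 and 0.32), both of the MIS12 kinetochore complex, and the phosphatase CDC25B (0.63 and -0.28). So in HeyC2 kinetochore subunits stood at both ends of the list.

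DNA replication genes parted from the mitotic genes in HeyC2 and not in SKOV3. Of 30, 3 were lower and 4 higher in HeyC2, with a median of -0.08, while 28 were lower and 0 higher in SKOV3, with a median of -1.35. Their share of the summed FPKM was 0.0898% in the HeyC2 control and 0.0922% in HeyC2 TET1, but 0.395% and 0.181% in SKOV3. RRM2, the small subunit of ribonucleotide reductase, was the lowest by its mean and lower in both lines (-1.28 and -2.45). TK1, thymidine kinase, was at -0.60 and -1.66, and CLSPN, or claspin, at -0.32 and -1.95. At the other end were the polymerase clamp PCNA (0.83 and -1.12), GINS2 of the replicative helicase (0.95 and -1.33) and the clamp loader subunit RFC4 (0.65 and -0.62). These last genes were thus above the median gene in HeyC2 and below it in SKOV3, each by at least 1.5-fold.

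Genes of G1 control were less uniform. Of 19 listed, 16 passed the filter, CCND2, CDKN2A and CDKN2B being at or below 0.04 FPKM. In HeyC2 4 were lower and 2 higher (median -0.16), and in SKOV3 8 were lower and 3 higher (median -0.60). Cyclin D1, CCND1, was at -0.45 and -2.60, the CDK4/6 inhibitor CDKN2C at -0.97 and -2.40, and cyclin E1, CCNE1, at -1.57 and -0.13. The CDK inhibitor CDKN1A, or p21, measured 397 and 212 FPKM in HeyC2 and 10.3 and 19.8 in SKOV3 (-0.82 and 0.69). Its relative CDKN1C, or p57, was at 0.35 and 0.97 and the pocket protein RBL2, or p130, a part of DREAM, at 0.34 and 0.62. The inhibitors of CDK were thus not raised together in either line.

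**Figure D5:**
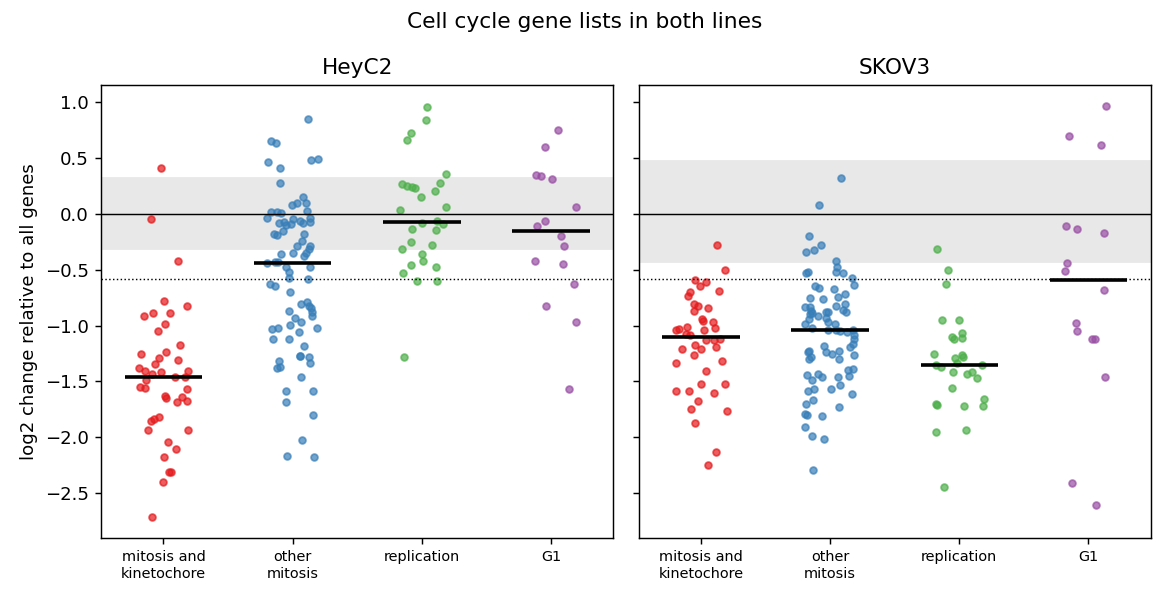
Relative log2 change of each gene of the 4 cell cycle lists in HeyC2 (left) and SKOV3 (right). Points are genes, bars the list medians, the grey band the interquartile range of all genes and the dotted line 1.5-fold lower; the replication median is -0.08 in HeyC2 and -1.35 in SKOV3, beside -1.46 and -1.10 for the mitosis and kinetochore genes.

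The share of genes with each element was also taken in the other lists. A CHR was found in 4 of the 26 replication genes with a window (15.4%) and in 37 of 66 of the other mitosis genes (56.1%). In the mitosis and kinetochore set it was found in 34 of 38. A CCAAT box was found in 17 of the 26 replication genes (65.4%) and in 47 of the 66 other mitosis genes (71.2%), beside the 39.7% of all genes with a window. These shares were not tested against each other. Of the G1 genes, 3 of 14 held a CHR and 6 of 14 a CCAAT box. The 983 tested genes outside the mitosis and kinetochore set with both elements had median relative changes of -0.06 in HeyC2 and -0.10 in SKOV3. The 4204 genes with neither had medians of 0.02 and -0.03. Of the genes with both, 16.99% and 22.2% were lower, beside 10.3% and 17.7% of those with neither. Genes of the other lists were not left out of these classes. Whether the elements go with the changes was not tested, as a match is a run of letters.

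For 12 members an exon overlaps a coding gene on the other strand in GENCODE: CCNA2, FOXM1, PLK1, CDCA3, HJURP, KIF20A, KIF4A, NUSAP1, ANLN, NCAPG, NCAPD2 and SMC4. Whether the counting used strand is not given in the sources used here, and without strand the reads of the overlapping stretch cannot be assigned to 1 gene.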

How the data were processed

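RNA of 4 samples was sequenced by the authors as paired-end TruSeq libraries. Per the labels, reads were aligned to hg19 with Bowtie2 2.2.6 and quantified with RSEM 1.2.17, and the unit of the deposited tables, 1 for HeyC2 and 1 for SKOV3, is FPKM. The annotation, the strand setting and the scaling to GAPDH are not given in the sources used here. The scaling constant was recovered from the spacing of values below 40 FPKM, which in the control is 0.01 (100% of distinct values lay on the grid in both TET1 libraries).

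From these values the log2 change with a pseudocount of 1 was computed, over genes averaging 1 FPKM or more in the line, minus the all-gene median. Since each condition has 1 library, genes are counted past 1.5-fold and no test was run. Depth was estimated from the FPKM steps of genes with known transcript length, and fragments from FPKM, length less 150 bases and depth. Exact Clopper-Pearson intervals (95%) cover counting error only. Positions came from GENCODE v44lift37 by symbol, with older symbols linked (22638 of 26506). Promoter windows are RefSeq's, and those shown were placed on GRCh37 by exact match. A window with over 30 bases of annotated UTR, that of CDK1, is not shown.

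The members and lists were chosen with earlier results of these data known. Levels are printed for the CDK1-cyclin group, the lowest and highest member in each line, the 3 highest in each control, those on the short arm of chromosome 12, those not lower in both lines and the lowest of each role by mean change. From other lists the 3 lowest and 3 highest by mean change are named, mostly by their changes alone. AURKA and the remaining members are given by their changes, and CCND2, CDKN2A, CDKN2B and the copies PTTG2, PTTG3P and KIF4B were named after their values were seen. The calculations were tested on simulated data. Alternatives were pseudocounts of 0.1 and 0.01, no filter, a mean FPKM of at least 5, thresholds of 2-fold and 1.2-fold, no centring, removal of the GAPDH scaling, TPM, upper-quartile scaling, centring on the 500 genes nearest in expression, leaving out the short arm of chromosome 12 and, chosen after seeing the data, centring on the 50 nearest genes on the chromosome. Python 3.11.15, numpy 2.4.6, pandas 2.3.3, scipy 1.17.1 and matplotlib 3.10.9 were used.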

Additional observations from a re-analysis of the deposited data

Results flagged for a closer look

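Genes of the other cell cycle lists that were at least 1.5-fold above the all-gene median in one line and at least 1.5-fold below it in the other were collected. With 1 library per condition the difference between the lines was not tested. None of the 44 mitosis and kinetochore genes did this, ECT2 (0.40 and -0.73) staying short of 1.5-fold in HeyC2. Of the other mitosis genes, DSN1 of the MIS12 kinetochore complex had a relative log2 change of 0.84 in HeyC2 and -1.02 in SKOV3. Of the replication genes, PCNA was at 0.83 and -1.12, GINS2 at 0.95 and -1.33, RFC4 at 0.65 and -0.62, and FEN1, the flap nuclease of lagging strands, at 0.72 and -1.72, HeyC2 first. Of the G1 genes, cyclin E2, CCNE2, was at 0.60 and -1.12 and E2F1, the transcription factor of S phase genes, at 0.74 and -0.98. CDKN1A went the other way, with -0.82 in HeyC2 and 0.69 in SKOV3. Cyclin E1 did not follow cyclin E2, at -1.57 and -0.13.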

How the results depend on the processing

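With pseudocounts of 0.1 or 0.01, a mean FPKM of at least 5, the GAPDH scaling removed, upper-quartile scaling, centring on the 500 genes nearest in expression or without the short arm of chromosome 12, the counts and medians of the 44 members kept within 1.5 times, or within 0.2 for medians, of their values, as they did when centred on chromosomal neighbours, an alternative chosen after seeing the data. Values as deposited, not centred, keep the all-gene shift of 1.61 and 0.59: the median of the members was then 0.15 in HeyC2 and -0.51 in SKOV3, with 4, 19 and, in both lines, 3 lower. In HeyC2 27 of 44 members were then not below the control. Of the 23 members whose levels are printed, those changing sign in HeyC2 were ANLN (0.63), AURKB (0.32), CCNB1 (0.053), CCNB2 (0.042), CDC20 (0.19), CDK1 (0.83), PTTG1 (0.56), TOP2A (0.36), UBE2C (0.20), TTK (1.18) and SMC4 (1.56), and in SKOV3 AURKB (0.085) and CENPA (0.31). Uncentred, the other lists had 0 and 34 (mitosis), 0 (replication, HeyC2) and 0 and 3 (G1) lower, and medians of 1.16 and -0.45, 1.53 and -0.76, and 1.45 and -0.0091, HeyC2 first. Without a filter, genes near 0 enter and lower the centre: 17, 22 and, in both lines, 9 members were lower, with medians of -0.47 and -0.59, and the sign changed for ANLN (0.0052), CDK1 (0.21), TTK (0.56) and SMC4 (0.94) in HeyC2 and AURKB (0.0049) and CENPA (0.23) in SKOV3. The other lists then had 7 and 36 (mitosis), 0 and 24 (replication) and 3 and 5 (G1) lower, HeyC2 first. Their medians were 0.54 and -0.53, 0.91 and -0.84, and 0.70 and -0.080. With TPM the SKOV3 medians were -0.89 (members), -0.82 (other mitosis), -1.15 (replication) and -0.38 (G1). At 2-fold, 24 members were lower in both lines. The other mitosis genes then had 22 lower in HeyC2 and 43 in SKOV3. Replication had 1 and 25 lower, and G1 had 1 and 6, HeyC2 first. At 1.2-fold, replication had 10 and G1 7 lower in HeyC2, and with a pseudocount of 0.01 the HeyC2 replication median was 0.12. Of 459 values of these 23 members under the alternatives, 292 stayed closer to the reported value than the ends of the gene's own counting interval lie to its middle, which is wide for CDCA3 and narrow for TOP2A, and 20 changed sign, the last being ECT2 in HeyC2 against its neighbours (-0.049). No paired analysis was possible because each condition has 1 library. The low fragment numbers of the members in HeyC2 TET1 limit the short, weakly expressed members most.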
